A study of Mus musculus with 4 samples.

Results

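Internal alternative promoters are transcription start sites (TSSs) that lie inside a gene, downstream of its first annotated start. They were examined here for acetylation of histone H3 at lysine 9 (H3K9ac) and lysine 14 (H3K14ac) in mouse embryonic stem (mES) cells. A TSS of a protein-coding transcript in the GENCODE annotation (version M1) entered the set when it lay 5 kb or more downstream of the most upstream TSS of its own gene and 5 kb or more from any TSS of another gene, with 1 TSS kept per 1 kb and gene. On chromosomes 1 to 19 this gave 5181 internal TSSs in 3484 genes, out of 21418 protein-coding genes (16.3%). Of these genes, 2410 had 1 internal TSS, 711 had 2 and 363 had 3 or more, with 10 at most. The median distance from the first TSS was 29739 bp, between a lower quartile of 12890 bp and an upper quartile of 78524 bp. Nearest inside the 5 kb limit were TSSs of Lztfl1 at 5000 bp with 25 H3K9ac and 16 input tags, Ccdc19 at 5005 bp with 70 and 23, and Rbbp6 at 5014 bp with 162 and 18. Nearest outside were TSSs of 4632415K11Rik and Pef1, both at 4998 bp, with 32 and 138 H3K9ac tags beside 27 and 16 input tags, and of Apitd1 at 4994 bp with 95 and 35.

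The study holds 4 libraries from untreated mES cells, which the labels give as the E14 line at passage 25-30 with 129P2/OlaHsd as the strain. The study's methods speak instead of wild type cells that were taken from blastocysts and later moved off their feeder cells. Chromatin was immunoprecipitated with the rabbit polyclonal antibody ab4441 against H3K9ac, with the monoclonal 13HH3-1A5 against H3K14ac (13HH3 below) or with a further H3K14ac monoclonal, 7G8, and input DNA was sequenced as the control. There was 1 library each, with 23183487 tags for H3K9ac, 21626965 for 13HH3 after repeats were dropped, 23839094 for 7G8 and 19313927 for input. No difference below has a replicate check, no p-value was computed, and intervals are exact 95% intervals within 1 library, over tag counts for a ratio and over sites for a share. Tags came from a population of cells, so strong acetylation in few cells and weak acetylation in many cannot be told apart. First TSSs of 9 of 10 stem cell marker genes were enriched for H3K9ac, with 15.1 to 127.7 normalised tags (tags per 10000000 tags of the library), and those of 2 of 8 feeder fibroblast markers, with 2.59 to 37.1. Among all protein-coding genes 61.2% had an enriched first TSS.

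Alternative promoters let a gene make transcripts with different first exons, which can change the N terminus of the protein, the untranslated leader or the tissue in which the gene is active. Acetylation of lysines on the tail of H3 is carried by nucleosomes flanking active promoters and enhancers, and H3K9ac in particular marks active starts. Most promoters of housekeeping and many developmental genes lie in CpG islands, stretches in which the CpG dinucleotide has not been lost from the genome. Neither mark shows transcription by itself, and an annotated start need not be used in these cells.

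The sequence just upstream of an internal TSS shows its local density of CpG. Over all internal TSSs acetylation varied with the CpGs within 500 bp, as described below. The few stretches printed here do not show this relation. The 100 bases before the start are given for 6 internal TSSs, 5′ to 3′ on the strand of the gene, from the mouse genome build NCBIM37 (mm9), with every CpG in capitals. Schip1 and Esrrb are shown with their first TSS as well, since in both the internal window held several times the H3K9ac of the first. Mbnl1 is shown as the densest of the 6, and Pde4d as a gene with a high and distant internal TSS. Tead1 and Nr5a2 are shown because they were among the strongly acetylated sites that met no CpG island criterion.
Schip1 internal, chr3:68298030-68298129, plus strand: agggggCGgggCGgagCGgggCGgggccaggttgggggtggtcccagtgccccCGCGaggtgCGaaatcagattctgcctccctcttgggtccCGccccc
Schip1 first, chr3:67868764-67868863, plus strand: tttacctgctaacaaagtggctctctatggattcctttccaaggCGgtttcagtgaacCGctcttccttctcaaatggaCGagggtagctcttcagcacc
Esrrb internal, chr12:87810967-87811066, plus strand: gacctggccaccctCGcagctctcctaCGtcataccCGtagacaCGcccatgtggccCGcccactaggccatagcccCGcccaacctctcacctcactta
Esrrb first, chr12:87701967-87702066, plus strand: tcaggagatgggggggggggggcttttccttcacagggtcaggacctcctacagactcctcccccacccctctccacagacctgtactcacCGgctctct
Mbnl1 internal, chr3:60305074-60305173, plus strand: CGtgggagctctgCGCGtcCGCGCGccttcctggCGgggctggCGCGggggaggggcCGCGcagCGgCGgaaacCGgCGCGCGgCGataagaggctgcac
Pde4d internal, chr13:110050748-110050847, plus strand: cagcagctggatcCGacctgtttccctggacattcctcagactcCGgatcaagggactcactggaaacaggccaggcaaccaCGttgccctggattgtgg
Tead1 internal, chr7:119835112-119835211, plus strand: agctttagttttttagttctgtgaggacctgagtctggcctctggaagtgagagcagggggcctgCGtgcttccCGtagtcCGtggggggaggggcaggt
Nr5a2 internal, chr1:138850208-138850307, minus strand: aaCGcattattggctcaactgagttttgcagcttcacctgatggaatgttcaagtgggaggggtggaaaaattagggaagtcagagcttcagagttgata
These stretches hold 8 CpGs for the internal Schip1 TSS against 3 for its first, 6 against 1 for Esrrb, 18 for Mbnl1, 3 for Pde4d, 3 for Tead1 and 1 for Nr5a2. None of them overlaps an annotated exon. Among the 6 internal TSSs the H3K9ac tags, given below, did not follow these CpG counts, and Mbnl1 had the fewest tags. The letters TATAAA, searched on the strand of the gene in the bases 40 to 21 before the start, occurred at 0.695% of internal TSSs, 0.918% of the first TSSs of the same genes and 2.27% of all first TSSs. The same window read on the opposite strand held them at 0.463%, 0.316% and 0.514%.

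Of the internal TSSs, 28.6% (27.4% to 29.9%) were enriched for H3K9ac, 13.9% (13% to 14.9%) for H3K14ac with 13HH3 and 8.57% (7.82% to 9.37%) for H3K14ac with 7G8. A site was called enriched when its window of 1 kb on each side held at least 2 times the input, both normalised, and the interval of that ratio lay above 1. By the same rule 8.07% of all 2 kb tiles of these chromosomes were enriched for H3K9ac, 5.34% for 13HH3 and 4.93% for 7G8. The first TSSs of the same genes reached 72.0%, 30.6% and 25.9%, and those of all protein-coding genes 61.2%, 25.6% and 24.4%. At the midpoint between an internal TSS and the first TSS, which stood for the gene body where it was 2 kb or more from any TSS (4461 sites), the shares were 19.1%, 11.8% and 6.90%. As a whole set, internal TSSs were therefore enriched more often than the body of the same genes for all 3 antibodies, and less often than first TSSs. Those without a CpG island were enriched less often than midpoints, as given below. The median window held 13.8 normalised H3K9ac tags at internal and 39.3 at first TSSs, 12.5 and 16.2 for 13HH3, 10.9 and 14.7 for 7G8, and 10.9 and 9.84 for input. Expressed as log2 over input with 1 normalised tag added, the median was 0.33 at internal TSSs, 1.81 at first TSSs and 0.19 at midpoints for H3K9ac. It was 0.18, 0.59 and 0.14 for 13HH3 and 0.02, 0.51 and 0.07 for 7G8, so that for 7G8 the median internal TSS lay below the median midpoint although more internal TSSs were enriched. Where input was scaled by the quieter 10 kb bins instead of the library total, 50.2% of internal TSSs, 82.3% of first TSSs, 42.4% of midpoints and 20% of tiles were enriched for H3K9ac, so the shares depend on the scaling whereas their order did not. For 13HH3 this scaling gave 25.0%, 46.4%, 22.1% and 11.4%, and for 7G8 9.94%, 28.7%, 8.25% and 5.99%.

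A CpG island at the internal TSS went with a higher share of enriched sites for all 3 antibodies. An island was counted where any 200 bp within 500 bp of the TSS had at least 50% G and C and an observed to expected CpG ratio of at least 0.6. Of the 1444 internal TSSs with an island, 57.2% (54.6% to 59.8%) were enriched for H3K9ac, 24.0% for 13HH3 and 16.1% for 7G8. Of the 3737 without, 17.6% (16.4% to 18.8%), 10.0% and 5.67% were. These lay under the 19.1%, 11.8% and 6.90% of midpoints, which were not divided by island. The median H3K9ac level was 27.6 normalised tags with an island and 11.7 without. With the sites in 5 classes by CpGs, 70.5% of the class with the most, 25 to 144 within 500 bp, were enriched for H3K9ac, against 15.1% to 24.1% in the other classes. Internal TSSs had fewer CpGs than the first TSSs of the same genes, with medians of 14 and 56, and 74.9% of those first TSSs had an island. Across internal TSSs, Spearman's rho between CpGs and log2 over input was 0.40 for H3K9ac, 0.32 for 13HH3 and 0.14 for 7G8, against 0.61, 0.41 and 0.26 across first TSSs. These are descriptions across sites of 1 library each, and the CpG count also had a rho of 0.30 with the input tags themselves.

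The shares also differed with the position of the site in the gene. Internal TSSs that lay in no exon of another transcript of the gene were enriched for H3K9ac in 37.2% of 2870 cases, and those inside such an exon in 17.9% of 2311. For 13HH3 the shares were 19.2% and 7.40%, and for 7G8 12.3% and 3.89%. Median input was the same on both sides, at 10.9 normalised tags. For each antibody the share inside an exon lay under that of midpoints. An island outside other exons was enriched for H3K9ac in 69.7% of 928 cases (66.7% to 72.7%), whereas an island inside another exon was in 34.7% of 516 cases. These 2 groups were not alike in input or CpGs. Median input was 10.9 normalised tags outside and 12.4 inside exons, and the median number of CpGs 37 and 26. Without an island the shares were 21.7% outside and 13.04% inside other exons. The 72.0% of first TSSs is no like measure for the island sites, since only 74.9% of those first TSSs had an island. The share among first TSSs with an island was not computed. For 13HH3 the island sites outside exons reached 29.2% and for 7G8 20.7%.

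**Figure D1:**
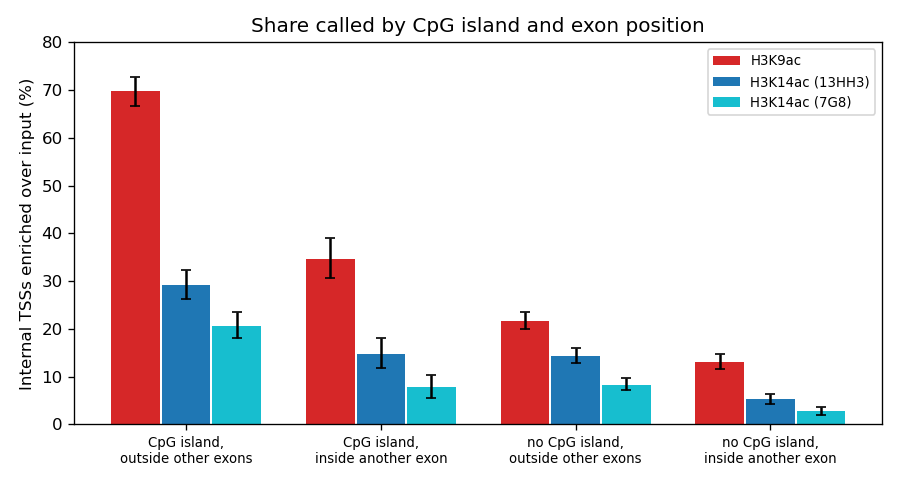
Share of internal TSSs enriched over input, in percent, in 4 classes of CpG island and exon position, for H3K9ac, H3K14ac (13HH3) and H3K14ac (7G8). Error bars are exact 95% binomial intervals over sites, and H3K9ac falls from 69.7% at islands outside other exons to 13.04% at sites with no island inside another exon.

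Sites with complete transcript models were enriched more often. Where every transcript of the site was marked as incomplete at its 5′ end (1415 sites), 14.4% were enriched for H3K9ac, against 34.0% of the 3766 with a complete model. This contrast overlaps with exon position, since most incomplete sites lay inside another exon. Of the 928 island sites outside other exons, 906 had a complete model. Without an island, 1795 sites lay inside another exon, and 1885 lay inside one or were incomplete. The 2 contrasts were not separated. Manually annotated (HAVANA) starts reached 30.6% and starts known from the automatic ENSEMBL annotation alone 23.5%. Start codons were compared with those of transcripts starting within 1 kb of the first TSS, and not with transcripts starting between it and the site. Sites that shared no codon with these were enriched in 37.8% of 1730 cases and those that shared one in 33.3% of 1428. Sites with no annotated start codon were enriched in 13.8% of 1794. The highest share, 45.9% (39.3% to 52.5%), was at the 229 sites with a start codon where no transcript from the first TSS had one annotated.

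Internal TSSs with an island had an average H3K9ac profile of the same form as first TSSs, with a peak on each side of the start. At first TSSs mean H3K9ac over input reached 4.59 times input at 250 bp before the start and 4.73 times at 150 bp after it, and dipped to 2.89 beside the start. Internal TSSs with an island outside other exons reached 3.69 times at 350 bp before and 4.08 times at 150 bp after, and dipped to 2.79. All internal TSSs with an island reached 3.01 and 3.35, while those without an island had 1.38 on both sides. At 4 to 5 kb the latter had 1.38 upstream and 1.17 downstream, so their peaks did not stand above this far upstream flank. Nearer the start the upstream bins were uneven, with 1.21 at 2250 bp, 1.34 at 1250 bp and 1.215 at 850 bp before it. The peak of 1.38 thus stood little above the higher of these bins. For 13HH3 the higher peak was downstream, at 2.07 times input for first TSSs and 1.97 for internal islands outside exons. For 7G8 it was upstream, at 1.78 and 1.65. Over input, the side of the higher peak was thus the same at these internal and first TSSs and differed between the antibodies. For 7G8 the side depended on the division by input. Its mean normalised tags per bin at first TSSs were 0.931 at 150 bp after and 0.9065 at 350 bp before the start, with input at 0.725 and 0.509. At all internal islands 7G8 over input was nearly even, at 1.35 upstream and 1.32 downstream.

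**Figure D2:**
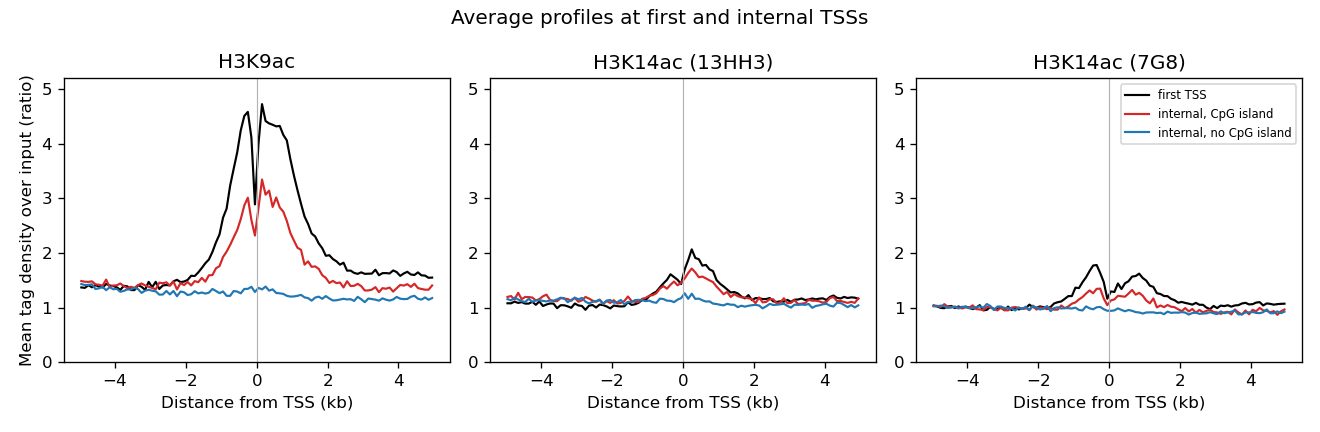
Mean tag density over input (ratio) against distance from the TSS in kb, for first TSSs (black), internal TSSs with a CpG island (red) and internal TSSs without (blue), in 100 bp bins for H3K9ac, H3K14ac (13HH3) and H3K14ac (7G8). H3K9ac peaks at 4.73 times input downstream of first TSSs and at 3.35 times downstream of internal TSSs with an island. The line for sites without an island has 1.38 on both sides of the start. Upstream it has 1.34 at 1250 bp, 1.21 at 2250 bp and 1.38 at 4 to 5 kb.

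A peak of its own was measured by setting the window against its flanks at 2 to 4 kb on both sides, with the same limit of 2 times. By this measure 21.5% of internal TSSs stood out for H3K9ac, against 66.2% of first TSSs and 7.57% of tiles. For 13HH3 it was 15.1% against 8.56% of tiles, for 7G8 11.3% against 7.21%, and for input 5.25% against 5.56%. Of the 1482 sites enriched for H3K9ac over input, 774 (52.2%) also stood out from their flanks. The share rose with distance from the first TSS, from 44.2% of enriched sites at 5 to 10 kb to 72.6% beyond 100 kb. Over all sites of a class, enriched or not, there was no such rise. Sites that were enriched and stood out numbered 149 of 911 at 5 to 10 kb and 154 of 1034 at 10 to 20 kb. They were 197 of 1381 at 20 to 50 kb, 118 of 826 at 50 to 100 kb and 156 of 1029 beyond.

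Sites close to the first TSS were enriched for H3K9ac more often than distant ones, and this order was not seen for 13HH3. The H3K9ac share was 37.0% at 5 to 10 kb, 32.6% at 10 to 20 kb, 28.6% at 20 to 50 kb, 24.0% at 50 to 100 kb and 20.9% beyond 100 kb. The intervals of the ends, 33.9% to 40.2% and 18.5% to 23.5%, do not overlap, though they count sites of the same gene as independent. The 13HH3 share stayed between 13.3% and 14.7% in the 5 classes, with overlapping intervals, and the 7G8 share ran from 10.3% at 5 to 10 kb to 6.78% at 50 to 100 kb and 7.48% beyond. The fall in H3K9ac was present within island sites, from 67.2% to 47.5%, and within sites without an island, from 23.1% to 9.78%, the latter near the 8.07% of tiles. Median H3K9ac at the first TSS of the same genes varied little over the distance classes, between 36.2 and 41.0 normalised tags. Whether H3K9ac around the first TSS extends into the nearest windows was not tested.

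**Figure D3:**
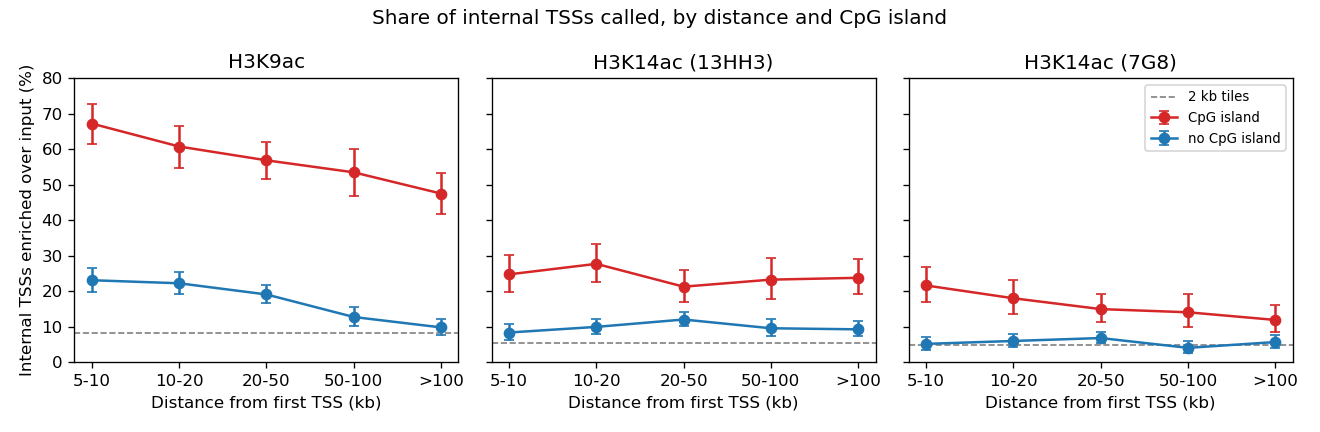
Share of internal TSSs enriched over input, in percent, by distance from the first TSS in kb, for sites with (red) and without (blue) a CpG island and for each of the 3 antibodies. Points carry exact 95% binomial intervals and the dashed line is the share of 2 kb tiles, and for H3K9ac the red points fall from 67.2% to 47.5% and the blue points from 23.1% to 9.78%.

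Within a gene, the internal window usually held less H3K9ac than the first. It was at most 1/2 of the first, with the interval below 1, at 2978 internal TSSs (57.5%) and at least 2 times the first, with the interval above 1, at 387 (7.47%) in 320 genes. Midpoints were lower in 70% and higher in 1.39% of cases. The count of higher sites has to be read beside input, where the same rule put 8.82% of internal TSSs above and 5.79% below the first TSS. For 13HH3, 8.57% were higher and 26.1% lower, beside 4.08% and 34.4% of midpoints, and for 7G8 5.23% and 25.9%, beside 2.2% and 31.8%. The median log2 ratio of internal to first TSS was -1.24 for H3K9ac, -0.28 for 13HH3, -0.36 for 7G8 and 0.06 for input. At 12 of the 387 higher sites the first TSS had under 5 input tags. Of the 387 higher sites, 297 (in 257 genes) were also enriched over input and 63 had a first TSS that was enriched. Among them 155 were higher than the first TSS for 13HH3 as well and 140 for 7G8.

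The contrast followed the islands. Where the internal TSS had an island and the first did not (360 sites), 52.5% (47.2% to 57.8%) were higher than the first TSS, with median H3K9ac of 33.2 normalised tags against 13.8. In the opposite arrangement (2854 sites) 0.631% were higher and 81.0% lower, with medians of 12.1 and 47.5. With an island at both ends 7.57% of 1084 were higher and with none at either end 11.1% of 883. An enriched first TSS and an enriched internal TSS occurred together at 1152 sites, the internal alone at 330, the first alone at 2622 and neither at 1077. Of the 1074 genes with 2 or more internal TSSs, all of them were enriched for H3K9ac in 109 genes, some in 433 and none in 532. The windows of 346 internal TSSs overlapped that of another in the same gene and share tags.

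**Figure D4:**
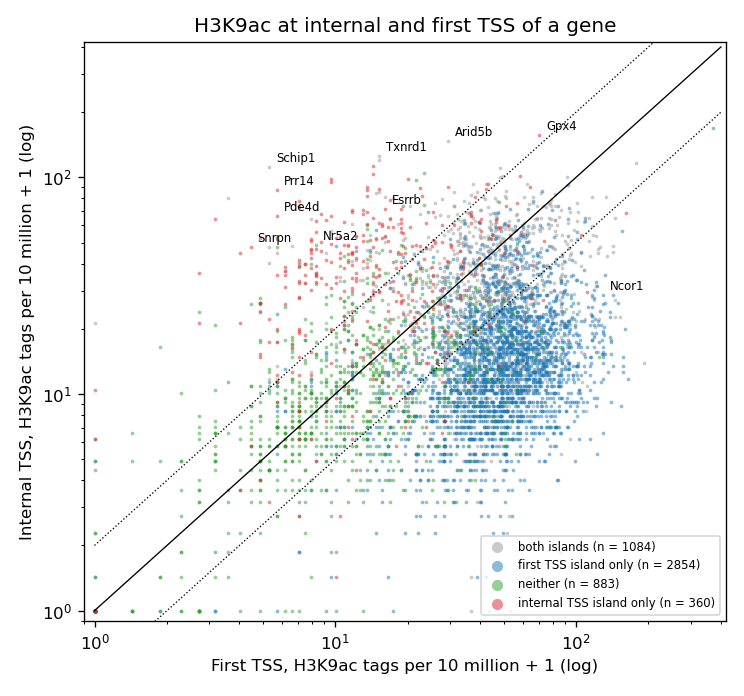
Normalised H3K9ac tags (per 10000000) plus 1 within 1 kb of each internal TSS against the first TSS of its gene, both axes logarithmic, coloured by which end has a CpG island. The solid line marks equal values and the dotted lines a factor of 2, and the sites with an island at the internal TSS alone (red, 360) lie mostly near or above the solid line while those with an island at the first TSS alone (blue, 2854) lie mostly below.

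The internal TSSs with the most H3K9ac over scaled input belonged to Gpx4, Arid5b, Txnrd1, Slc3a2, Cln8, Schip1 and 1700081L11Rik. In 6 of these 7 genes the internal TSS stood at least 2 times above the first, and all 8 sites had an island and were enriched for all 3 antibodies. At Gpx4, a glutathione peroxidase that reduces lipid peroxides, the internal TSS (chromosome 10, position 79516233, 6322 bp from the first) had 362 H3K9ac tags, 172 for 13HH3, 120 for 7G8 and 18 for input. Its first TSS had 161, 82, 78 and 29 in the same order, so the H3K9ac ratio was 2.25 (1.86 to 2.72). Arid5b, a DNA-binding protein of the ARID family, had 340 H3K9ac, 128 13HH3, 92 7G8 and 20 input tags at 67599374 on chromosome 10, 142100 bp from a first TSS with 66, 19, 25 and 13. Txnrd1, the cytosolic thioredoxin reductase, had 2 internal TSSs with overlapping windows on chromosome 10. The one at 82321951 had 288, 103, 89 and 20 tags, beside 33, 31, 23 and 22 at the first TSS. In all 3 of these genes each antibody gave more tags at the internal than at the first TSS.
The second Txnrd1 site, at 82323086, had 276, 95, 78 and 16 tags. Cln8, a protein of the endoplasmic reticulum, had 259, 63, 108 and 19 at its internal TSS and 31, 27, 24 and 17 at its first. 1700081L11Rik had 254, 99, 49 and 18 at the internal and 110, 35, 24 and 14 at the first.
Slc3a2, the heavy chain of an amino acid transporter, went the other way. Its internal TSS at 8788387 on chromosome 19 had 267 H3K9ac tags against 409 at the first TSS, a ratio of 0.653 (0.557 to 0.764).

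Schip1 had one of the highest ratios. Its internal TSS, whose upstream sequence is printed above, lies at 68298130 on chromosome 3, 429266 bp from the first, and held 256 H3K9ac, 79 13HH3, 64 7G8 and 19 input tags. The first TSS held 10, 12, 11 and 15, which is input level, and the H3K9ac ratio was 25.6 (13.7 to 54.0). At Usp14, a deubiquitinase of the proteasome, the tags were 183, 31, 49 and 15 at the internal and 6, 7, 4 and 11 at the first TSS, a ratio of 30.5 (13.8 to 84.2). Phldb2, a membrane-associated protein with a pleckstrin homology domain, had 147, 62, 61 and 24 against 5, 19, 37 and 17. Prr14 had 201, 44, 51 and 7 against 11, 16, 13 and 15, and with 23.9 times input it was the member of this group farthest above input.
Mbnl1, a regulator of alternative splicing, gave unlike counts with the H3K14ac antibodies. Its internal TSS at 60305174 on chromosome 3, with 117 CpGs within 500 bp, had 82 H3K9ac, 66 13HH3, 17 7G8 and 15 input tags, so it was 3.93 times input with 13HH3 and 0.918 times with 7G8. The first TSS had 4, 10, 17 and 6. The remaining sites of this group were in 2210404J11Rik and Phf10, whose first TSS held no tag in any library, input included, and in Gm2974, whose first TSS held 0 H3K9ac and 3 input tags. With no H3K9ac tag at the first TSS their ratio has no value, and they ranked in this group as ratios without an upper bound. Their internal TSSs held 9, 47 and 22 H3K9ac tags over 1, 8 and 7 input tags.

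Genes of the pluripotency and signalling network had 19 internal TSSs in 13 genes, of which 11 (57.9%) were enriched for H3K9ac, 10 (52.6%) for 13HH3 and 5 (26.3%) for 7G8. Of these 19, 3 were higher than the first TSS and 9 lower for H3K9ac. Over all internal TSSs the enriched shares were 28.6%, 13.9% and 8.57%, with 7.47% higher and 57.5% lower for H3K9ac. Esrrb, an orphan nuclear receptor of the pluripotency network, had 163 H3K9ac, 70 13HH3, 62 7G8 and 28 input tags at 87811067 on chromosome 12, against 35, 38, 34 and 26 at the first TSS, a ratio of 4.66 (3.22 to 6.92). Its other internal TSS, at 87762594, had 72, 76, 37 and 33 and was enriched with 13HH3 but not for H3K9ac. Both of these ratios to input lay close to the limit of 2. At Nr5a2, a nuclear receptor that can activate Pou5f1, the internal TSS at 138850207 on chromosome 1 had 111, 41, 43 and 11 tags and the first 17, 13, 21 and 14, a ratio of 6.53 (3.90 to 11.6). Both genes showed the first TSS near input and the internal TSS above it for all 3 antibodies, although the 7G8 ratio of Esrrb, 1.79 times input, missed the limit.
In Lin28b, an RNA-binding protein that blocks maturation of let-7, both starts were marked, with 99 H3K9ac tags at the internal and 125 at the first TSS over 7 and 24 input tags. Ptch1, the hedgehog receptor, had 149 and 95 H3K9ac tags at 2 internal TSSs with overlapping windows, against 84 at the first.

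Imprinted genes had 16 internal TSSs in 10 genes, of which 4 were enriched for H3K9ac, 2 for 13HH3 and 1 for 7G8. Snrpn, which is expressed from the paternal chromosome, had 108 H3K9ac, 22 13HH3, 28 7G8 and 16 input tags at 67150042 on chromosome 7, 135063 bp from a first TSS with 8, 8, 11 and 13. It was 5.62 times input for H3K9ac and 1.23 times for 13HH3. Mest, also paternally expressed, had 80, 29, 46 and 23 at 30683454 on chromosome 6 against 17, 38, 25 and 15. In both, H3K9ac was higher than at the first TSS and neither H3K14ac antibody passed the limit. The tags do not separate the parental alleles. The other enriched sites were in Gnas, the stimulatory G protein alpha subunit, with 84 and 91 H3K9ac tags beside 91 at its first TSS. At Grb10, a growth factor receptor adaptor, the 3 internal TSSs held 14 to 20 H3K9ac tags over 25 to 35 input tags, and its first TSS held 43 over 18.

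Developmental transcription factors had 54 internal TSSs in 26 genes, with 17 enriched for H3K9ac, 11 for 13HH3 and 4 for 7G8, and 3 higher and 32 lower than the first TSS. Runx1, the regulator of blood formation with a distal and a proximal promoter, held 106 H3K9ac, 48 13HH3, 32 7G8 and 23 input tags at 92697573 on chromosome 16, and 79, 55, 39 and 19 at 92696255. Its first, distal TSS had 17, 33, 21 and 20. Both internal starts, whose windows overlap and share tags, were enriched for H3K9ac and the distal start was not. Lmo2, a partner of blood transcription factors, showed the same order with 85 H3K9ac tags at the internal and 33 at the first TSS. Pax6, which directs eye and brain development, had 3 enriched internal TSSs with 52 to 85 H3K9ac tags beside 74 at its first. Tead1, a DNA-binding partner of the YAP coactivator, was strongly marked at a site without an island. Its internal TSS at 119835212 on chromosome 7 had 9 CpGs within 500 bp and held 198 H3K9ac, 122 13HH3, 128 7G8 and 17 input tags, while the first TSS held 165, 78, 38 and 15. The H3K9ac ratio of 1.20 (0.971 to 1.48) does not separate the 2 starts.

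Genes of DNA methylation and chromatin had 46 internal TSSs in 19 genes, with 17 enriched for H3K9ac, 7 for 13HH3 and 5 for 7G8, 3 higher and 21 lower than the first. Dnmt3l, the catalytically inactive partner of the de novo DNA methyltransferases, had 185 H3K9ac, 114 13HH3, 70 7G8 and 17 input tags at 77512587 on chromosome 10, against 86, 62, 37 and 37 at the first TSS. Dnmt3a, one of these methyltransferases, had 69 H3K9ac and 17 input tags at 3906816 on chromosome 12, against 37 and 28 at its first. Kdm4c, a histone demethylase of H3K9, had 64 H3K9ac tags at the internal and 20 at the first TSS, over 10 and 14 input tags. Tet1, which oxidises methylated cytosine, had 62 and 74, which differ by less than counting error.
Cytoskeletal and adhesion genes, many of which are known for large proteins with alternative first exons, had 60 internal TSSs in 19 genes, with 24 enriched for H3K9ac, 10 for 13HH3 and 6 for 7G8, 2 higher and 20 lower than the first. Tpm3, a tropomyosin, held 204 H3K9ac tags at the internal and 50 at the first TSS, over 26 and 25 input tags. In Sept9, a septin, 4 internal TSSs were enriched for H3K9ac with 65 to 156 tags, beside 105 at the first. Neuronal and synaptic genes had 57 internal TSSs in 20 genes, with 18 enriched for H3K9ac, 6 for 13HH3 and 1 for 7G8, 5 higher and 21 lower. Nrxn3, a presynaptic adhesion molecule, held 100 H3K9ac tags at 91050923 on chromosome 12, 1089603 bp from a first TSS with 24, and 4 other internal TSSs held 5 to 18. Shank2, a scaffold of the postsynaptic density, held 67 and 89 at 2 internal TSSs against 25 at the first, and Bdnf, the neurotrophin with many promoters, 47 and 135 against 74. Read against the 28.6% of all internal TSSs, the 6 lists lay between 25.0% for imprinted and 57.9% for pluripotency genes, and with 16 and 19 sites these 2 are the smallest lists. The lists also differed in CpG islands, present at 1444 of all 5181 sites. Islands were at 33 of 57 neuronal, 8 of 19 pluripotency and 7 of 16 imprinted sites. They were at 23 of 54 developmental, 13 of 46 chromatin and 20 of 60 cytoskeletal sites. The lists were not compared at equal island content. For 13HH3 the lists lay between 10.5% for neuronal and 52.6% for pluripotency genes, beside 13.9% of all internal TSSs. For 7G8 the same 2 lists were the ends, at 1.75% and 26.3%, beside 8.57%.

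The genes with the most internal TSSs were Ttn with 10, Ncor1 and Pde4d with 9, Macf1 with 8 and Arap1 with 7, and their sites were far from alike. In Pde4d, a cyclic AMP phosphodiesterase with many promoters for long and short isoforms, the first TSS held 11 H3K9ac, 30 13HH3, 18 7G8 and 11 input tags. The internal TSS at 110050848 on chromosome 13, 810706 bp downstream, held 151, 40, 55 and 13, and the one at 110422976 held 121, 51, 55 and 19. The other 7 held 8 to 43 H3K9ac tags. Only the first of this pair had an island, and both were enriched for all 3 antibodies. Macf1, a linker of microtubules and actin, had 93 H3K9ac, 49 13HH3, 51 7G8 and 20 input tags at 123204891 on chromosome 4 against 25, 25, 21 and 26 at its first TSS, and 14 to 34 H3K9ac tags at the other 7.
In Ncor1, a corepressor that recruits histone deacetylases, the first TSS dominated, with 298 H3K9ac tags against 13 to 64 at 9 internal sites. Ttn, the giant muscle protein titin, had 21 H3K9ac tags at the first and 6 to 37 at the internal TSSs, where input was 9 to 21, and the highest of these, with 37 over 9, was enriched. Arap1 had 115 at the first and 55 to 109 at the internal TSSs, and at the site 13195 bp from the first 13HH3 reached 130 tags, above the 107 of H3K9ac.

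**Figure D5:**
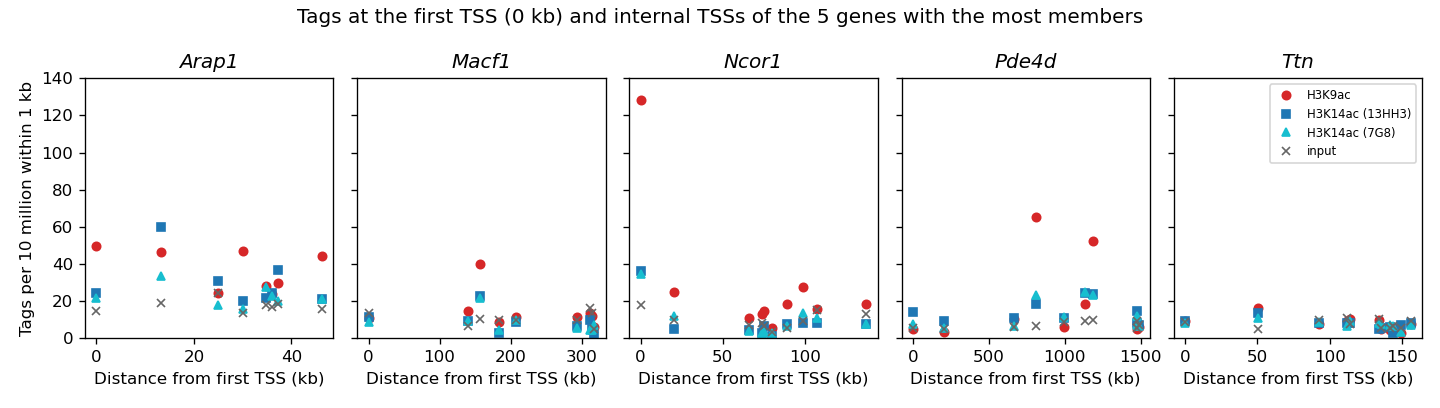
Normalised tags (per 10000000) within 1 kb against distance from the first TSS in kb (the first TSS is at 0) for Arap1, Macf1, Ncor1, Pde4d and Ttn, with H3K9ac as circles, H3K14ac (13HH3) as squares, H3K14ac (7G8) as triangles and input as crosses. Ncor1 has its high H3K9ac point at the first TSS, Pde4d has a pair of high points far downstream, Macf1 has 1, and Ttn has none.

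Normalised H3K14ac tags stood closer to those of H3K9ac at internal than at first TSSs, and closer still at midpoints. From first to internal TSSs the median window fell from 39.3 to 13.8 normalised tags for H3K9ac and from 16.2 to 12.5 for 13HH3. Median input was 10.9 at internal TSSs and 8.80 at midpoints, where H3K9ac had 10.8 and 13HH3 10.2. Many of these windows were thus near input. Where neither mark stands far above input their ratio lies near 0, without more H3K14ac. The median log2 ratio of 13HH3 to H3K9ac, both normalised, was -0.20 at internal TSSs, -1.17 at the first TSSs of the same genes and -0.02 at midpoints. For 7G8 it was -0.44, -1.32 and -0.16. Paired within the gene, the internal minus the first TSS had a median of 0.83 for 13HH3 and 0.76 for 7G8. Among sites enriched for H3K9ac the gap was smaller, with medians of -1.01 at internal and -1.44 at first TSSs for 13HH3, and -1.14 and -1.55 for 7G8. Of the internal TSSs, 278 were enriched for all 3 antibodies, 827 for H3K9ac alone, 266 for H3K9ac and 13HH3, 111 for H3K9ac and 7G8, and 3485 for none. The 544 sites shared by H3K9ac and 13HH3 were 36.7% of the H3K9ac sites and 75.3% of the 13HH3 sites. At first TSSs 96.2% of the 13HH3 sites were also enriched for H3K9ac. These 2 shares have to be read beside H3K9ac itself, enriched at 28.6% of all internal and 72.0% of all first TSSs. The overlap between antibodies was not counted over tiles.
Sites enriched with 13HH3 but not for H3K9ac numbered 178. Of all internal TSSs, 159 (3.07%) were enriched for 13HH3 alone and 19 (0.367%) for 13HH3 and 7G8. At first TSSs these were 30 (0.861%) and 10 (0.287%), where fewer sites lacked H3K9ac enrichment. Internal TSSs without H3K9ac enrichment numbered 3699. The other first TSSs without it were 925 enriched for no antibody and 9 for 7G8 alone. Taken over sites without H3K9ac enrichment, the shares with 13HH3 were close at internal and first TSSs. Among the 178 internal sites Fancc, of the Fanconi anaemia DNA repair pathway, had 23 H3K9ac, 50 13HH3, 23 7G8 and 10 input tags at 63511076 on chromosome 13. Whrn, a scaffold protein of hair cells, had 34, 84, 50 and 18 at 63133774 on chromosome 4, Rapgef2, an exchange factor for Rap, 26, 57, 22 and 12 at 78949797 on chromosome 3, and Lrch1 21, 43, 29 and 9 at 75299516 on chromosome 14. Gm6309 had 7, 22, 22 and 4. The H3K9ac of these 5 sites was 1.46 to 1.94 times input, under the limit of 2. With input scaled by the quieter bins, 128 of the 178 were enriched for H3K9ac too, 4 of these 5 among them. The sites with the most 13HH3 over scaled input were those of Gpx4, Arid5b and Tead1 described above, 1700019D03Rik with 218, 127, 62 and 22 tags, and Inpp5d, a lipid phosphatase of blood cells, with 223, 154, 64 and 21 at 89572814 on chromosome 1. Inpp5d had 13 CpGs within 500 bp and no island at this site, and its first TSS held 48, 59, 59 and 28.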

How the data were processed

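Reads of 36 bases had been placed on mm9 by the authors, who used ELAND with up to 1 mismatch and deposited the position, strand and a score for each. The deposited score was 1 on every line and was not used, and the positions carry no normalization. In the 13HH3 file 738711 tags (3.30%) repeated a position and strand, and 1 of each was kept, as in the other files. Tags were shifted 100 bp from their 5′ ends, those within 1 kb of a TSS were counted and expressed per 10000000 tags of the library, and ChIP and input were compared through the exact interval of the ratio of 2 Poisson counts. The annotation was GENCODE M1 on NCBIM37, the same build. The most upstream TSS of all transcripts of a gene was its first TSS. One tag ended 1 base beyond chromosome 6, so starts may be counted from 1, which moves a window by 1 base. Scripts used scipy 1.17.1 and numpy 2.4.6 for statistics, pandas 2.3.3 for tables and matplotlib 3.10.9 for plots under Python 3.11.15, and were tested on simulated data.

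Named are the 8 internal TSSs with the most H3K9ac over scaled input, the 8 with the highest ratio to the first TSS, the 5 with the most 13HH3, 5 enriched for 13HH3 and not H3K9ac, the 5 genes with the most sites, and sites of 6 gene lists. Members and lists were chosen with earlier results of these data known. There were 14 alternatives, for windows, tags, scaling, thresholds, the pseudocount and the annotation. Expression data were not used here.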

Additional observations from a re-analysis of the deposited data

How the results depend on the processing

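Each antibody has 1 library, so variation between cultures, precipitations and libraries was not measured, and windows with few tags carry wide intervals (141 internal TSSs had under 5 input tags). No paired analysis was possible because each antibody and input has 1 library, so no replicate libraries could be paired, and pairs of sites within a gene were compared within a library. Of 218 values computed under 14 alternatives, 168 stayed close to the reported value (a share within a factor of 1.5, a median or rho within its 95% interval over sites) and 50 did not. No median or rho changed sign, though the median log2 for 7G8 was 0 with 1 site per gene. A share cannot change sign. Shares within that factor still moved beyond their intervals. H3K9ac enrichment was 24.3% in windows of 2 kb, 34.8% by the interval alone and 34.0% at complete 5′ ends. The share lower than the first TSS for H3K9ac was 42.9% with a limit of 3 times and 66.5% by the interval alone. Causes were not tested. Scaling input by the quieter 10 kb bins, which raised ChIP over input by a factor of 1.62 for H3K9ac, 1.25 for 13HH3 and 1.05 for 7G8, gave 50.2% enriched internal TSSs for H3K9ac and 25.0% for 13HH3. It also gave median log2 over input of 0.94, 0.47 and 0.076 for the 3 antibodies, a CpG rho of 0.42 for H3K9ac, and H3K9ac shares of 60.1% at 5 to 10 kb and 35.6% beyond 100 kb. A limit of 3 times input left 16.4%, 3.995% and 2.22% enriched. With this limit 4.55%, 2.68% and 1.47% were higher than the first TSS, and for 13HH3 and 7G8 12.97% and 11.2% were lower. The interval alone, with no minimum ratio, gave 13.4% higher for 13HH3 and 8.41% for 7G8.

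Windows of 2 kb on each side gave 8.80% enriched for 13HH3 and 5.56% for 7G8, 16.9% and 17.1% lower than the first TSS, and 3.07% higher for 7G8. They gave a median log2 of 0.15 for 13HH3, CpG rho of 0.35, 0.28 and 0.082, and a difference between internal and first TSS in H3K14ac over H3K9ac of 0.76 for 13HH3 and 0.62 for 7G8. Windows of 500 bp gave a median log2 of 0.21 for 13HH3, rho of 0.30 and 0.10 for 13HH3 and 7G8, and a difference of 0.82 for 7G8. A pseudocount of 5 gave median log2 of 0.24 for H3K9ac and 0.14 for 13HH3 and differences of 0.74 and 0.70. Sites 10 kb or more from the first TSS gave a median log2 of 0.28 for H3K9ac and differences of 0.87 and 0.82. With 1 site per gene the medians were 0.29 for H3K9ac and 0.13 for 13HH3. Sites with a complete 5′ end gave medians of 0.47, 0.30 and 0.13, rho of 0.48 for H3K9ac and 0.19 for 7G8, and differences of 0.74 and 0.70. With all tags kept the difference for 13HH3 was 0.79.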
